A study of Mus musculus with 15 samples.

Results

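A set of 9 transcription factor genes that set or hold macrophage lineage identity, Spi1, Cebpa, Cebpb, Irf8, Irf4, Maf, Zeb2, Id2, and Id3, were followed through RNA sequencing of mouse blood monocytes and small intestine macrophages. They were chosen by gene symbol, and each of the 9 matched 1 of the 19456 genes in the deposited table of read counts. The 15 libraries were made from cells of adult male C57BL/6 wild type mice: 3 from Ly6Chi blood monocytes and 4 from each of 3 macrophage subsets, named by their surface Tim-4, a receptor for apoptotic cells, and CD4. One subset, Tim-4-CD4-, lacked both proteins, another, Tim-4-CD4+, had CD4 alone, and the last, Tim-4+CD4+, had both. Each library held sorted cells pooled from 3 mice, or from 4 mice for monocyte replicate 2, so the spread between libraries was a spread between pools. No mouse carried a transgene, deletion, or treatment that the labels name. The gut cells had been released by enzyme digestion at body temperature and the blood cells had not, and cells positive for Ly6C were gated out of the macrophage sort.

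PU.1, encoded by Spi1, and the C/EBP factors open the chromatin of myeloid progenitors and, with IRF8, direct them toward monocytes. As monocytes become tissue macrophages, MAF and ZEB2 are among the factors that hold the mature state, MAF by restraining proliferation and driving Il10, ZEB2 as a repressor of genes of other fates. ID2 and ID3 have no DNA-binding region of their own and act by capturing E proteins such as the products of Tcf3, Tcf4, and Tcf12. In the intestine, macrophages are largely renewed from Ly6Chi monocytes, and the study separated subsets by Tim-4 and CD4 to ask whether some are renewed more slowly.

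The total count on genes was 39388763 to 151510641 per library, so that even the lowest member, Id3 in monocytes, rested on at least 139 reads in a library. The genes of the sort were found where the labels place them: Timd4 averaged 355.5 CPM in Tim-4+CD4+ macrophages and at most 1.70 CPM in any other population, Cd4 averaged 22.9 CPM in Tim-4-CD4- macrophages, 530.5 CPM in the Tim-4-CD4+ subset, and 816 CPM where Tim-4 was present as well, and Ly6c2 averaged 1092 CPM in monocytes and at most 1.72 CPM in macrophages. A list of 8 macrophage markers summed to 13410 to 18690 CPM per macrophage library and 3810 to 4156 CPM per monocyte library. Genes induced by cell isolation moved with the gut samples. A list of 18 dissociation and stress genes summed to 2744 to 3228 CPM in monocytes and 35510 to 52280 CPM in macrophages. In the macrophage mean 17 of the 18 were higher, where 40.4% of all genes tested were. The tissue, the digestion, and the cell type cannot be told apart in any comparison with monocytes. CPM is a count divided by the library size, scaled by the TMM method, per 1000000 reads.

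Levels per kilobase of exon gave nearly the same order of the factors in all 4 populations. The length was that of all annotated exons of a gene joined, 1504 bases for Cebpb and 19942 for Zeb2. It need not be the length of the transcript present, and the order between genes depends on it. Cebpb was the highest, with a mean of 334 CPM per kilobase in monocytes and, in the order Tim-4-CD4-, then Tim-4-CD4+, then Tim-4+CD4+, 559.6, 568, and 636 CPM per kilobase in macrophages. Spi1 followed at 258, 172, 164, and 191 CPM per kilobase, then Cebpa at 78.1, 114, 148, and 155, and Irf8 at 61.7, 73.1, 90.5, and 106 CPM per kilobase. The ranges of Spi1 and Cebpa did not touch in monocytes or in Tim-4-CD4- macrophages but overlapped in both CD4+ subsets, so those neighbors were not separated there. Maf and Irf4 both changed place. Maf stood 8th in monocytes, at 12.2 CPM per kilobase with a range that overlapped that of Id2, and 5th in every macrophage subset, at 57.9 to 62.8 CPM per kilobase, while Irf4 stood 6th in monocytes and 8th or 9th in the subsets. Zeb2 and Id2 overlapped each other in the 3 macrophage subsets at 20.7 to 30.2 CPM per kilobase. Id3 was the lowest member in monocytes, at 1.62 CPM per kilobase, below the median of all tested genes there, 2.35 CPM per kilobase. In Tim-4-CD4- macrophages Id3 stood above Irf4, at 13.7 and 9.42 CPM per kilobase, although their ranges overlapped.

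**Figure D1:**
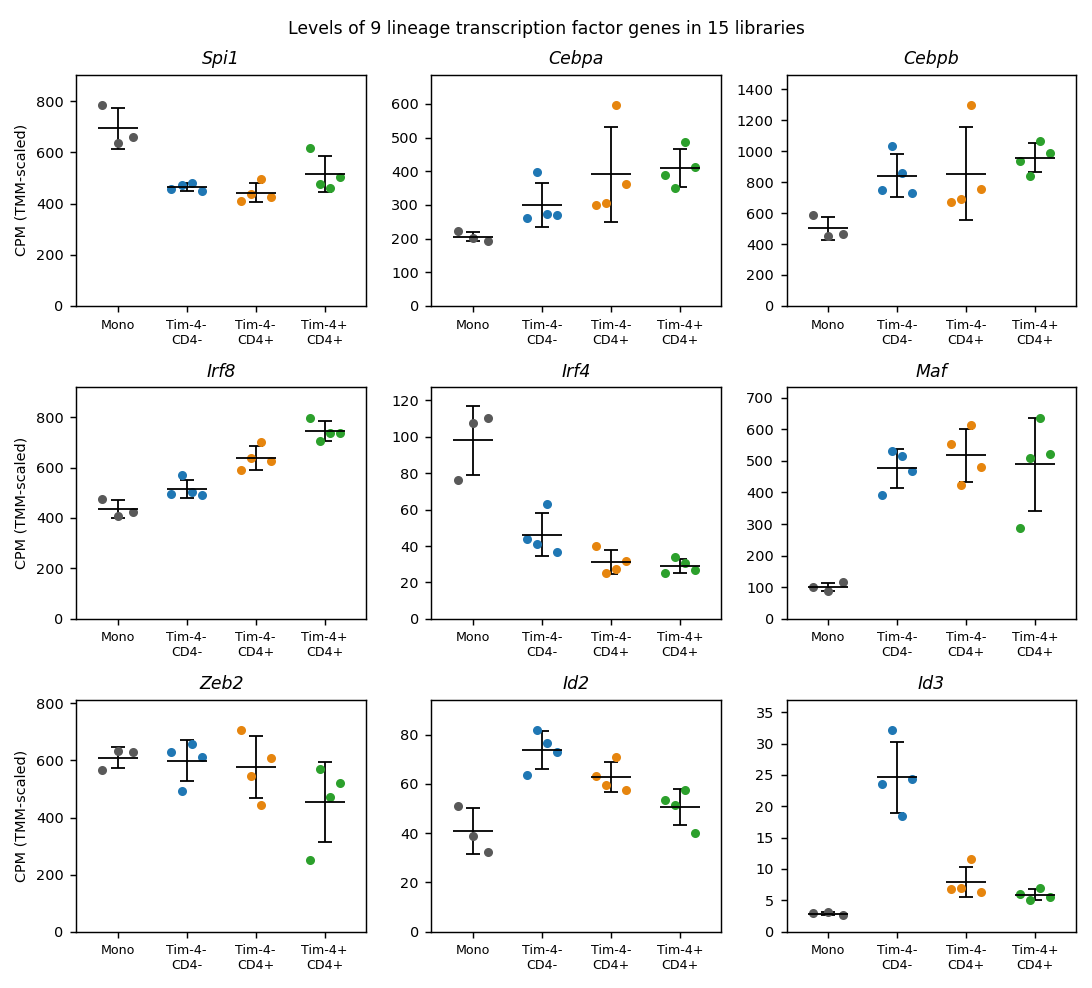
Level of each of the 9 genes in CPM (TMM-scaled, linear axis from 0) in every library, by population. Points are libraries in order of replicate number, horizontal bars are means, and error bars are SD (n = 3 for monocytes, 4 for each macrophage subset). Maf and Id3 are higher in every macrophage library than in any monocyte library, Irf8 rises in steps across the 4 populations, and the 4 Tim-4-CD4- libraries of Id3, at 18.5 to 32.1 CPM, stand above all others.

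From monocytes to the mean of the 3 macrophage subsets, 6 of the 9 genes were higher, 2 were lower, and Zeb2 did not pass the test (edgeR quasi-likelihood test, Benjamini-Hochberg adjusted p under 0.05). Maf, Id3, Cebpa, Cebpb, Id2, and Irf8 rose, and Irf4 and Spi1 fell. Most genes differed in this comparison, 73.3% of the 15802 tested (40.4% higher and 33% lower), so 8 of 9 is not far from the background. The libraries of monocytes and macrophages did not overlap for 7 members and for 54.9% of tested genes. For Tim-4-CD4- macrophages alone, 6 members were higher and 2 lower than in monocytes, where 65.4% of tested genes differed (37.3% higher and 28.1% lower), and 8 members and 67.6% of tested genes did not overlap. For the Tim-4-CD4+ subset the counts were also 6 higher and 2 lower, where 69.8% differed (39.1% higher and 30.7% lower), and 8 members and 70.1% of tested genes did not overlap. For the Tim-4+CD4+ subset 5 were higher and 2 lower, where 70.9% differed (39.5% higher and 31.3% lower), and 7 members and 68.7% of tested genes did not overlap. The median log2 difference of the 9 members was 0.59 in the comparison with the macrophage mean, and that of all tested genes was 0.09. Differences of at least 2-fold were found in 3 members, Maf, Id3, and Irf4, a rule that 42.2% of tested genes met. The same rule held for 3 members against each subset alone, with 38.2%, 42.3%, and 43.3% of tested genes in the order of the subsets above.

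Between subsets the members split into genes that differed and genes that did not. In Tim-4+CD4+ against Tim-4-CD4- macrophages, Irf8 was higher and Irf4, Id2, and Id3 were lower, 4 of 9 members where 23.1% of tested genes passed (11.3% higher and 11.9% lower). The same 4 members, and 26.4% of tested genes, had no overlap between libraries. In Tim-4-CD4+ against Tim-4-CD4- macrophages, Irf8 was higher and Id3 was lower, 2 of 9 where 10.1% passed (4.52% higher and 5.53% lower), and these 2 members and 19.1% of tested genes did not overlap. No member passed by edgeR or DESeq2 when Tim-4+CD4+ were set against Tim-4-CD4+ macrophages, where 3.41% of tested genes did by edgeR (2.07% higher and 1.34% lower). Irf8 and Id2, 2 of 9, did not overlap there, nor did 9.63% of tested genes. Id3 alone met the 2-fold rule against Tim-4-CD4- macrophages, in either CD4+ subset, where 8.45% of tested genes met it for the Tim-4+CD4+ subset and 3.06% met it for the Tim-4-CD4+ subset, and no member met it between the CD4+ subsets (1.75% of tested genes). In the comparison of the CD4+ subsets 4 members, Spi1, Irf8, Id2, and Id3, had an unadjusted p under 0.05. These comparisons share libraries, so a member that differs in one is not independent evidence in another. Fewer cells of a type in a pool and less RNA per cell cannot be told apart in any of these bulk values.

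**Figure D2:**
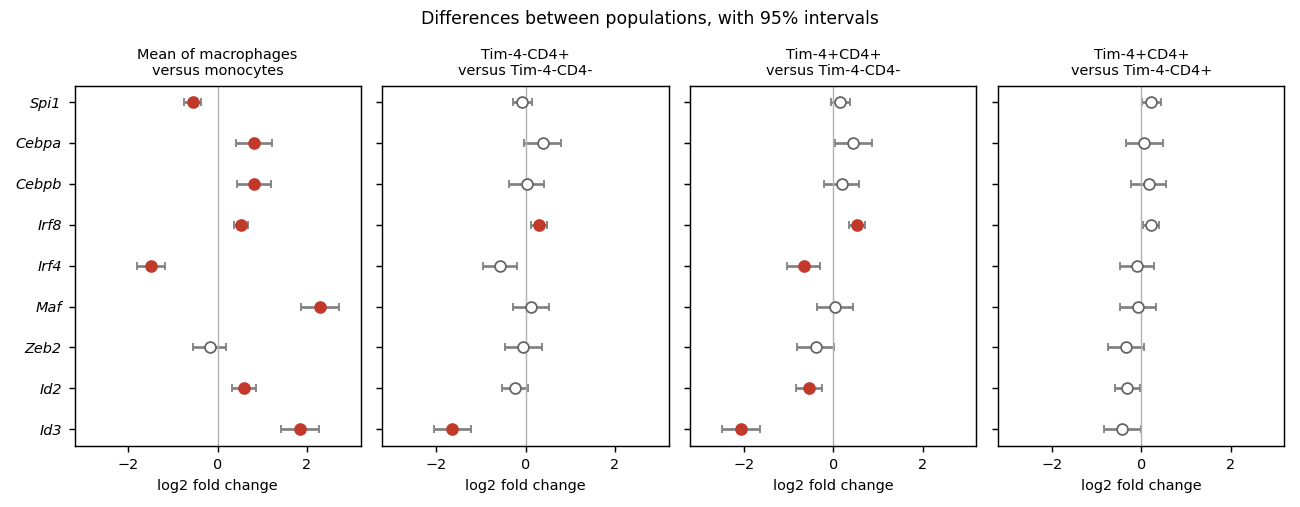
Log2 fold change of the 9 genes in 4 comparisons, from an edgeR fit to all 15 libraries. Bars are 95% intervals, filled points have an adjusted p under 0.05, and open points do not. Filled points are found for 8 genes against monocytes, for Irf8 and Id3 in Tim-4-CD4+ against Tim-4-CD4- macrophages, for Irf8, Irf4, Id2, and Id3 in Tim-4+CD4+ against Tim-4-CD4- macrophages, and for none between the CD4+ subsets.

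Spi1, which encodes PU.1, the ETS factor needed for all myeloid lineages (ENSMUSG00000002111.8, chr2:91082390-91115756, plus strand), was highest in monocytes. The 3 monocyte libraries had 787, 638, and 659.9 CPM. Tim-4-CD4- macrophages had 457, 472, 482, and 449 CPM, Tim-4-CD4+ macrophages 409, 438, 495, and 426 CPM, and Tim-4+CD4+ macrophages 619, 478, 460.5, and 504 CPM. Every monocyte library stood above every macrophage library, although Tim-4+CD4+ replicate 1 came close to the lowest of them. In the macrophage mean Spi1 was 1.47-fold lower (log2 fold change -0.55, SE 0.09, adjusted p = 3.05e-05). No pair of subsets passed. The largest subset difference was 0.22 log2, between the CD4+ subsets, with a 95% interval of 0.01 to 0.44 and an adjusted p of 0.321. Corrected for GC content and for length, an alternative chosen after seeing the data, it was 0.02 log2.

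Cebpa and Cebpb, which encode C/EBPα, required for the step to granulocyte and monocyte progenitors, and C/EBPβ, active in monocyte survival and in inflammatory macrophages, rose together in the gut. Cebpa (ENSMUSG00000034957.10, chr7:35119293-35121928, plus strand) had 221, 202, and 194 CPM in monocytes and 261, 397, 273, and 269 CPM in Tim-4-CD4- macrophages. It had 300.2, 304, 598, and 361 CPM in Tim-4-CD4+ macrophages and 389.95, 349, 487, and 412 CPM in Tim-4+CD4+ macrophages. All 12 macrophage libraries were above all 3 monocyte libraries, and 1 library of Tim-4-CD4- and 1 of Tim-4-CD4+ macrophages stood far above the rest of its group. The macrophage mean was 1.77-fold higher (log2 0.82, SE 0.19, adjusted p = 0.000903).

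Cebpb (ENSMUSG00000056501.3, chr2:167688915-167690418, plus strand) had 589, 453, and 465 CPM in monocytes and 748, 1031, 857, and 730.3 CPM in Tim-4-CD4- macrophages. It had 671, 692, 1299.9, and 756 CPM in Tim-4-CD4+ macrophages and 936, 840.4, 1066, and 986 CPM in Tim-4+CD4+ macrophages. Again no macrophage library reached down into the monocyte range, and the high libraries were the same as for Cebpa, Tim-4-CD4- replicate 2 and Tim-4-CD4+ replicate 3. The macrophage mean was 1.76-fold higher (log2 0.81, SE 0.18, adjusted p = 0.000573). Those 2 libraries also had the highest sums of the dissociation and stress genes in their groups, 52060 and 52280 CPM, where the other 10 macrophage libraries had 35510 to 44910 CPM. Without both libraries, an alternative chosen after seeing the data, Cebpa was 0.62 log2 higher in Tim-4+CD4+ than in Tim-4-CD4- macrophages with an adjusted p of 0.0011, where with all libraries it was 0.45 log2 higher with an adjusted p of 0.111. Without them Cebpb was 0.45 log2 higher in Tim-4+CD4+ than in Tim-4-CD4+ macrophages (adjusted p = 0.0458), against 0.16 log2 (adjusted p = 0.716) with all libraries. Each left-out library was the highest of its group for both genes, so leaving it out had to lower the mean of that group. The Cebpa difference passed in 5 and the Cebpb difference in 1 of 27 alternatives that kept the threshold. Corrected for GC content and for length, they were 0.33 log2 (adjusted p = 0.116) and -0.0558 log2 (adjusted p = 0.871). The part of cell isolation in these levels was not tested. Tmem189, on the opposite strand, shares 312 exonic bases with Cebpb and had a median of 87.1 CPM, 11.5% of the level of Cebpb, and how the count treated strand is not given in the sources used here.

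The IRF members moved in opposite directions. Irf8, which encodes the factor that directs progenitors to monocytes and to one lineage of dendritic cells (ENSMUSG00000041515.9, chr8:120736358-120756694, plus strand), had 477, 406, and 423 CPM in monocytes and 496, 569.9, 504, and 493 CPM in Tim-4-CD4- macrophages. It had 589, 638, 702, and 627 CPM in Tim-4-CD4+ macrophages and 798, 707, 737, and 736 CPM in Tim-4+CD4+ macrophages. None of the 4 populations overlapped with the next in this order. The step from monocytes to Tim-4-CD4- macrophages was the least certain, at 1.18-fold (log2 0.24, SE 0.09, adjusted p = 0.0252). It did not pass without monocyte replicate 2 (adjusted p = 0.0806), monocyte replicate 3 (0.0616), or Tim-4-CD4- replicate 2 (0.069), or after the GC and length correction (log2 0.13, adjusted p = 0.122). Tim-4-CD4+ exceeded Tim-4-CD4- macrophages by 1.24-fold (log2 0.31, SE 0.08, adjusted p = 0.0254), a call that was lost without any one of Tim-4-CD4- replicates 1, 3, and 4 and Tim-4-CD4+ replicates 2, 3, and 4 (adjusted p 0.0621 to 0.0853). The difference of Tim-4+CD4+ from Tim-4-CD4- macrophages, 1.44-fold (log2 0.53, SE 0.08, adjusted p = 0.000189), held in all 27 alternatives that kept the threshold. The sum of 3 endothelium markers rose in the same order. It was 11.8 to 20.97 CPM in monocytes and 107 to 122 CPM in Tim-4-CD4- macrophages. In the Tim-4-CD4+ subset it was 174 to 215 CPM, and in the Tim-4+CD4+ subset 286 to 346 CPM. Nearly all of it was Pecam1, which myeloid cells also express. Across the subsets in that order Cdh5 averaged 4.58, 3.33, and 5.25 CPM and Kdr 4.89, 2.37, and 4.19 CPM, so neither rose at each step. Of 7 dendritic cell markers, Siglech rose in the order of Irf8, with means of 0.172, 2.04, 3.15, and 8.46 CPM. The sum of the 7 did not. It was 46.2 to 73.2 CPM in monocytes and 69.9 to 145.6 CPM in Tim-4-CD4- macrophages. In the Tim-4-CD4+ subset it was 42.4 to 54.1 CPM, and in the Tim-4+CD4+ subset 43.3 to 59.9 CPM. The part of other cells in Irf8 was not tested. Between the CD4+ subsets the 0.22 log2 difference had a 95% interval of 0.05 to 0.40 and an adjusted p of 0.205.

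Irf4, which encodes a factor of plasma cells, of alternatively activated macrophages, and of another lineage of dendritic cells (ENSMUSG00000021356.9, chr13:30749226-30766976, plus strand), fell from monocytes to macrophages. Monocytes had 76.2, 108, and 111 CPM and Tim-4-CD4- macrophages 43.9, 41.3, 63.1, and 36.5 CPM. Tim-4-CD4+ macrophages had 40.2, 25.1, 27.1, and 32.0 CPM and Tim-4+CD4+ macrophages 25.02, 33.7, 30.4, and 26.985 CPM. Monocytes stood clear of all 12 macrophage libraries, and the macrophage mean was 2.83-fold lower (log2 -1.50, SE 0.15, adjusted p = 1.05e-07). Tim-4+CD4+ macrophages were 1.59-fold lower than Tim-4-CD4- macrophages (log2 -0.67, SE 0.18, adjusted p = 0.012), with no overlap between libraries. That call rested on 1 library, since without Tim-4-CD4- replicate 3 the log2 fold change was -0.48 and the adjusted p 0.0556. The same library had the highest sum of 7 dendritic cell markers, 145.6 CPM, in a subset that ran from 69.9 CPM, while Tim-4+CD4+ libraries ran from 43.3 to 59.9 CPM. None of the 7 markers was at 0 in every library of either subset. Among them Flt3, the receptor of dendritic cell progenitors, was at 4.41 to 17.9 CPM in Tim-4-CD4- and 0.415 to 0.798 CPM in Tim-4+CD4+ macrophages, and it was also at 21.9 to 33.5 CPM in monocytes. Cd209a and Itgae had higher means in Tim-4-CD4- than in Tim-4+CD4+ macrophages too, 39.01 against 7.73 CPM and 9.61 against 2.20 CPM. Siglech went the other way, with means of 2.04 and 8.46 CPM, and the ranges of Clec9a, Xcr1, and Zbtb46 overlapped between these subsets. Plasma cell markers were also present in the macrophage libraries. Of 5 listed, Jchain averaged 0.174 CPM in monocytes and 296.9, 292, and 280 CPM in the subsets. Mzb1 averaged 0.0086 CPM in monocytes and 5.95, 5.45, and 4.67 CPM in the subsets. Sdc1 and Tnfrsf17 were higher in the subsets too, while Xbp1 was highest in monocytes, at 331 CPM against 209, 206, and 225 CPM. The part of dendritic cells and of plasma cells in Irf4 was not tested. Irf4 in Tim-4-CD4+ against Tim-4-CD4- macrophages (log2 -0.57, SE 0.18) had an adjusted p of 0.0545 by edgeR and 0.0242 by DESeq2.

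A list of 5 Ly6Chi monocyte markers followed the same order of populations as Irf4 and the reverse of that of Irf8. It summed to 7446 to 9809 CPM in monocytes, 563 to 811 CPM in Tim-4-CD4-, 101 to 205 CPM in Tim-4-CD4+, and 39.5 to 74.8 CPM in Tim-4+CD4+ macrophages, and none of its genes was at 0 in every library of a population. Most of the sum in Tim-4-CD4- macrophages was Ccr2, the chemokine receptor of monocytes, at 510 to 759 CPM against 2243 to 2884 CPM in monocytes, and it averaged 84.1 CPM in the Tim-4-CD4+ subset and 8.39 CPM in the Tim-4+CD4+ subset. F13a1 averaged 59.1 CPM in Tim-4-CD4- macrophages and 2342 CPM in monocytes. Ly6c2 and Chil3 each averaged at most 1.72 CPM in any macrophage subset and at least 1092 CPM in monocytes. The part of monocytes or recently arrived cells in the Irf4 and Irf8 values was not tested.

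Maf, which encodes c-MAF, showed the largest rise from monocytes to the macrophage mean among the 9 genes, although Id3 rose more in Tim-4-CD4- macrophages alone, and no subset difference passed the test. Maf (ENSMUSG00000055435.6, chr8:115682942-115707794, minus strand) had 99.6, 87.3, and 116 CPM in monocytes and 393, 532, 515, and 469 CPM in Tim-4-CD4- macrophages. It had 552, 423, 614, and 479.9 CPM in Tim-4-CD4+ macrophages and 288, 510.2, 637, and 521 CPM in Tim-4+CD4+ macrophages. The lowest macrophage library, Tim-4+CD4+ replicate 1, was still above the highest monocyte library, and the macrophage mean was 4.90-fold higher (log2 2.29, SE 0.20, adjusted p = 2.64e-08). The 95% intervals between subsets were -0.28 to 0.51 log2 for Tim-4-CD4+ against Tim-4-CD4-, -0.36 to 0.43 for Tim-4+CD4+ against Tim-4-CD4-, and -0.48 to 0.32 for Tim-4+CD4+ against Tim-4-CD4+ macrophages.

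Zeb2, the zinc finger homeobox repressor that helps to hold tissue macrophage identity (ENSMUSG00000026872.17, chr2:44983632-45117395, minus strand), was the 1 member with no call in any comparison. Monocytes had 568, 632, and 629 CPM and Tim-4-CD4- macrophages 629, 495, 659, and 612 CPM. Tim-4-CD4+ macrophages had 705, 547, 445, and 610.1 CPM and Tim-4+CD4+ macrophages 252, 570.3, 473, and 520.5 CPM. All groups overlapped, and Tim-4+CD4+ replicate 1 had less than any other library. The log2 difference of the macrophage mean from monocytes was -0.18 with a 95% interval of -0.55 to 0.19, and that of Tim-4+CD4+ macrophages from monocytes was -0.43 (-0.87 to 0.02, adjusted p = 0.0791). Zeb2os, annotated on the opposite strand, shares 653 exonic bases with Zeb2 and had a median of 36.4 CPM, 6.11% of the level of Zeb2.

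The ID genes were both higher in the macrophage mean than in monocytes, and both were lower in Tim-4+CD4+ than in Tim-4-CD4- macrophages. Id2 (ENSMUSG00000020644.8, chr12:25093799-25097140, minus strand), best known from innate lymphoid cells and dendritic cells, had 51.1, 38.7, and 32.5 CPM in monocytes and 63.4, 81.7, 76.6, and 73.0 CPM in Tim-4-CD4- macrophages. It had 63.1, 59.4, 70.9, and 57.6 CPM in Tim-4-CD4+ macrophages and 53.5, 51.4, 57.4, and 40.0 CPM in Tim-4+CD4+ macrophages. The range of Tim-4-CD4- macrophages was clear of both monocytes and Tim-4+CD4+ macrophages, and Tim-4+CD4+ macrophages overlapped with monocytes. The macrophage mean was 1.51-fold above monocytes (log2 0.59, SE 0.13, adjusted p = 0.000586), and Tim-4+CD4+ macrophages were 1.46-fold below Tim-4-CD4- macrophages (log2 -0.54, SE 0.14, adjusted p = 0.00792). Tim-4+CD4+ macrophages against monocytes gave a log2 fold change of 0.31 with a 95% interval of -0.0041 to 0.62 and an adjusted p of 0.0719, and 9 of 27 alternatives called it, DESeq2 among them (adjusted p = 0.0277). The sum of 6 natural killer and innate lymphoid cell markers fell with Id2 across the subsets, from 8.26 to 10.2 CPM in Tim-4-CD4- to 3.80 to 5.29 CPM in Tim-4+CD4+ macrophages. It was mostly Il7r, at 6.51 to 8.03 and 1.78 to 3.41 CPM, and the dendritic cell markers given with Irf4 fell as well, from 69.9 to 145.6 CPM in Tim-4-CD4- to 43.3 to 59.9 CPM in Tim-4+CD4+ macrophages. The part of such cells in Id2 was not tested.

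Id3 (ENSMUSG00000007872.3, chr4:136143497-136145755, plus strand), a factor known from Kupffer cell identity and from lymphocyte development, showed the largest subset difference of the 9 genes. The study had already named Id3 among genes higher in Tim-4-CD4- macrophages. Its result came from these same libraries, so the values below are not independent evidence. Monocytes had 3.02, 3.08, and 2.58 CPM, and Tim-4-CD4- macrophages had 23.5, 32.1, 18.5, and 24.3 CPM. Tim-4-CD4+ macrophages had 6.78, 6.95, 11.5, and 6.37 CPM and Tim-4+CD4+ macrophages 6.01, 5.03, 7.04, and 5.47 CPM. The Tim-4-CD4- libraries stood above all 11 others, and both CD4+ subsets stood above monocytes. Against monocytes the rise was 8.46-fold in Tim-4-CD4- (log2 3.08, SE 0.23, adjusted p = 5.02e-09), 2.72-fold in Tim-4-CD4+ (1.44, SE 0.22, 1.95e-05), and 2.02-fold in Tim-4+CD4+ macrophages (1.02, SE 0.22, 0.000512). Against Tim-4-CD4- macrophages Id3 was 3.11-fold lower in Tim-4-CD4+ (log2 -1.64, SE 0.20, adjusted p = 4.02e-05) and 4.18-fold lower in Tim-4+CD4+ macrophages (-2.06, SE 0.20, 1.05e-06). Both calls held in all 27 alternatives that kept the threshold. The CD4+ subsets differed by -0.43 log2 (95% interval -0.84 to -0.02, adjusted p = 0.315). Summed markers of dendritic cells and of Ly6Chi monocytes, given with Irf4, were also higher in Tim-4-CD4- macrophages than in either CD4+ subset. So were those of mast cells, 4 genes, at 5.13 to 14.0 CPM in Tim-4-CD4-, 2.52 to 3.24 CPM in Tim-4-CD4+, and 1.29 to 2.43 CPM in Tim-4+CD4+ macrophages, nearly all of it Kit, with Cpa3 at 0 in every Tim-4-CD4- library. Summed T cell markers, 5 genes, were at 2.12 to 4.98 CPM in Tim-4-CD4- and 5.64 to 8.95 CPM in Tim-4-CD4+ macrophages. Of the dissociation and stress genes, 6 of the 18 were lower in Tim-4+CD4+ than in Tim-4-CD4- macrophages, and none was higher. Of all tested genes, 11.9% were lower and 11.3% higher there. Socs3 decreased by 0.91, Nfkbia decreased by 0.77, and Egr1 decreased by 0.65 on the log2 scale. The part of other cell types and of the stress genes in the Id3 difference was not tested.

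The bases before the start sites of Id3, Irf8, and Irf4 are shown because these are 3 of the 4 members that differed in Tim-4+CD4+ against Tim-4-CD4- macrophages, and because their windows hold letters read by the lineage factors or by STAT factors. The sequences are from RefSeq (GRCm38.p6), each the 250 bases before an annotated start, 5′ to 3′ in the direction of the gene. The gene positions given above are from GENCODE, where Id3 begins at 136143497, so the whole Id3 sequence lies inside that gene. The last bases of the Irf4 sequence also run past the GENCODE start, 30749226. Capitals mark GAGGAA, the core letters bound by PU.1, and TTCNNNGAA, the letters of an interferon gamma activated site (GAS), on either strand.
Id3, chr4:136143572-136143821, plus strand: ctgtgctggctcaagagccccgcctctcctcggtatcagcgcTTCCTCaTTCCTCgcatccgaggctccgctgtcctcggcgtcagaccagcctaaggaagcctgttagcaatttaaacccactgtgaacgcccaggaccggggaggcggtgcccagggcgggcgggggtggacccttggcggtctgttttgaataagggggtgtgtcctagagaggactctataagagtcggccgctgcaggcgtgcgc
Irf8, chr8:120736108-120736357, plus strand: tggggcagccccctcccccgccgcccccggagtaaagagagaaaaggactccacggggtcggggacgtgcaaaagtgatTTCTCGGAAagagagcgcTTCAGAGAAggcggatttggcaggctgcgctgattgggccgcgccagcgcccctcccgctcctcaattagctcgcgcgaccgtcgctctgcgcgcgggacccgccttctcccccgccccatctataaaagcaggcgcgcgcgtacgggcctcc
Irf4, chr13:30748983-30749232, plus strand: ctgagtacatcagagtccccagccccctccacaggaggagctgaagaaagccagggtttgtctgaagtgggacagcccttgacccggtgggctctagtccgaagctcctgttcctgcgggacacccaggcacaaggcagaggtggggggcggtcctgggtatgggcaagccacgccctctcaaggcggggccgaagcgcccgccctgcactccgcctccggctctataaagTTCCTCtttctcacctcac

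The Id3 window had 2 matches to GAGGAA before the RefSeq start, both as the reverse complement, beginning 208 and 201 bases upstream of it. The Irf8 window shown had 2 matches to TTCNNNGAA, 171 and 153 bases upstream. Irf8 had another window, not shown, with no match to TTCNNNGAA. It held the letters given below for ZEB and MAF, 205 and 157 bases upstream. The Irf4 window had 1 match to GAGGAA, 19 bases upstream, next to a TATAAA 26 bases upstream. In windows that run 250 bases before to 50 bases after a start, GAGGAA was found in 28.3% and TTCNNNGAA in 8.3% of all 32851 windows. Windows were listed for 7 of the 9 members, all but Spi1 and Maf. The other letters searched, on both strands, were a pair of GAAA with 2 bases between for IRF factors, TTGCNNAA for C/EBP, CACCTG for ZEB, TGCTGA for MAF, and TATAAA, found in 3.4%, 10.8%, 20.2%, 19.5%, and 13.6% of all windows. None of the 11 windows of the 7 members held the paired GAAA. The window of Id2 held none of the letters. The letters were not particular to members that differed between subsets, since Zeb2, which passed in no comparison, had GAGGAA in all 4 of its windows and TTCNNNGAA in 2 of them. Those 2 windows overlap, and their matches to TTCNNNGAA and to GAGGAA are the same bases. All matches named here describe letters and were not tested as binding sites.

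Relatives of the 9 factors were read from lists of family members. In the MAF family, 4 of 6 listed genes were tested and 3 were higher in the macrophage mean, where 40.4% of tested genes were. Maff, a small MAF without an activating region, averaged 0.252 CPM in monocytes and 92.95 CPM in Tim-4-CD4- macrophages, and in Tim-4+CD4+ against Tim-4-CD4- macrophages it fell by 0.70 on the log2 scale (SE 0.14, adjusted p = 0.00129).

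The IRF relatives leaned the other way from Irf8, with 2 of 7 higher and 4 lower in the macrophage mean. Of all tested genes, 40.4% were higher and 33% lower. The median of the IRF relatives was -0.68 log2, against 0.09 over all tested genes. Irf7, the amplifier of type I interferon, averaged 504 CPM in monocytes and 124 to 147 CPM in the subsets (log2 -1.88, SE 0.14, adjusted p = 2.28e-09). In Tim-4+CD4+ against Tim-4-CD4- macrophages, Irf3 rose (log2 0.38, SE 0.11, adjusted p = 0.0174) and Irf2 fell (-0.34, SE 0.09, 0.0114).

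All 5 genes listed as C/EBP relatives, Cebpz among them, differed from monocytes in the macrophage mean, where 73.3% of tested genes did. Of these, 4 were lower, the direction opposite to Cebpa and Cebpb, as were 33% of tested genes. Cebpg, 1 of these 4, did not pass against monocytes in the Tim-4-CD4+ subset (adjusted p = 0.172) or the Tim-4+CD4+ subset (adjusted p = 0.22). Cebpd averaged 113 CPM in monocytes and 38.4 to 51.1 CPM in the subsets (log2 -1.38, SE 0.10, adjusted p = 2.94e-09). Ddit3, the stress-induced partner that blocks C/EBP binding, was the 1 that rose, from a mean of 7.12 CPM to means between 71.6 and 78.7 CPM (log2 3.39, SE 0.19, adjusted p = 8.45e-11). Among 15 ETS relatives of Spi1, 6 were higher and 5 lower in the macrophage mean, with a median of -0.08 log2. These counts were near the shares of all tested genes, 40.4% higher and 33% lower. Ets2 rose from a mean of 11.01 CPM to means between 543 and 552 CPM (log2 5.64, SE 0.13) and Etv5 from a mean of 2.22 CPM to means between 145 and 151.6 CPM (log2 6.07, SE 0.23). Spic, the PU.1 relative of iron-recycling macrophages, averaged 5.18, 5.86, 8.05, and 10.1 CPM across the 4 populations and was 0.78 log2 higher in Tim-4+CD4+ than in Tim-4-CD4- macrophages (SE 0.19, adjusted p = 0.00606). Etv3 fell in the same comparison (log2 -0.61, SE 0.11, adjusted p = 0.00043).

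The E protein genes that ID2 and ID3 act on changed little beside Id3. Of 6 ZEB, ID, and E protein relatives, 1 was higher and 2 were lower in the macrophage mean, against 40.4% and 33% of tested genes. Tcf4 averaged 98.4, 115, 119, and 108 CPM in the 4 populations and passed in neither the comparison with the macrophage mean (log2 0.21, adjusted p = 0.125) nor that of Tim-4+CD4+ against Tim-4-CD4- macrophages (-0.09, 0.683). Tcf3 was lower in Tim-4+CD4+ than in Tim-4-CD4- macrophages by a small margin (log2 -0.23, SE 0.07, adjusted p = 0.0337). Id1, another ID gene, moved opposite to Id2 and Id3, from a mean of 6.50 CPM in monocytes to 0.727 to 0.983 CPM in the subsets (log2 -2.95, SE 0.28, adjusted p = 7.05e-08). Zeb1, the paralog of Zeb2, averaged 7.91 CPM in monocytes and 5.97, 3.53, and 2.44 CPM in the subsets, and from the first to the last subset it fell by 1.29 on the log2 scale (SE 0.24, adjusted p = 0.000885).

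Among 24 partners and other myeloid factors, 16 were higher and 7 lower in the macrophage mean (median log2 1.19), against 40.4% and 33% of tested genes. In Tim-4+CD4+ against Tim-4-CD4- macrophages 2 were higher and 6 lower, against 11.3% and 11.9% of tested genes. Prdm1, the repressor BLIMP-1, averaged 24.96, 247, 380.5, and 403 CPM across the 4 populations and was higher in both comparisons (log2 3.75, SE 0.19, adjusted p = 1.28e-11, and 0.71, SE 0.16, 0.00317). Bcl6, a repressor known to oppose it in lymphocytes, went the other way between the subsets (86.1 to 44.1 CPM, log2 -0.97, SE 0.11, adjusted p = 1.04e-05). Tfec, a relative of MITF, rose from 16.3 to 29.8 CPM (log2 0.87, SE 0.14, adjusted p = 0.000185). Bhlhe41 had 1 read in the monocyte libraries and 1.16 to 4.76 CPM in macrophages.

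Of 25 known target genes of the 9 factors in myeloid cells, 24 were tested. In the macrophage mean 15 were higher and 7 lower, against 40.4% and 33% of tested genes. Csf1r, the growth factor receptor driven by PU.1, averaged 2227, 4274, 6171, and 6677 CPM across the populations (macrophage mean log2 1.33, SE 0.07, adjusted p = 2.50e-11), while Spi1 itself fell. Il10, a target of MAF, averaged 0.0534 CPM in monocytes and 86.3, 110, and 124 CPM in the subsets. Il12b, a target of IRF8 and PU.1, had no read in monocytes, where up to 3 reads per library could have been missed, and 4.89 to 8.93 CPM in macrophages, at least 119-fold higher. In Tim-4+CD4+ against Tim-4-CD4- macrophages, 5 targets were higher and 6 lower, against 11.3% and 11.9% of tested genes. Il6, activated with C/EBPβ, was lower (4.88 against 0.927 CPM, log2 -2.39, SE 0.36, adjusted p = 0.00011), and the efferocytosis receptor Mertk (111 against 199 CPM, log2 0.84) and the scavenger receptor Msr1 (303 against 532 CPM, log2 0.81) were higher.

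**Figure D3:**
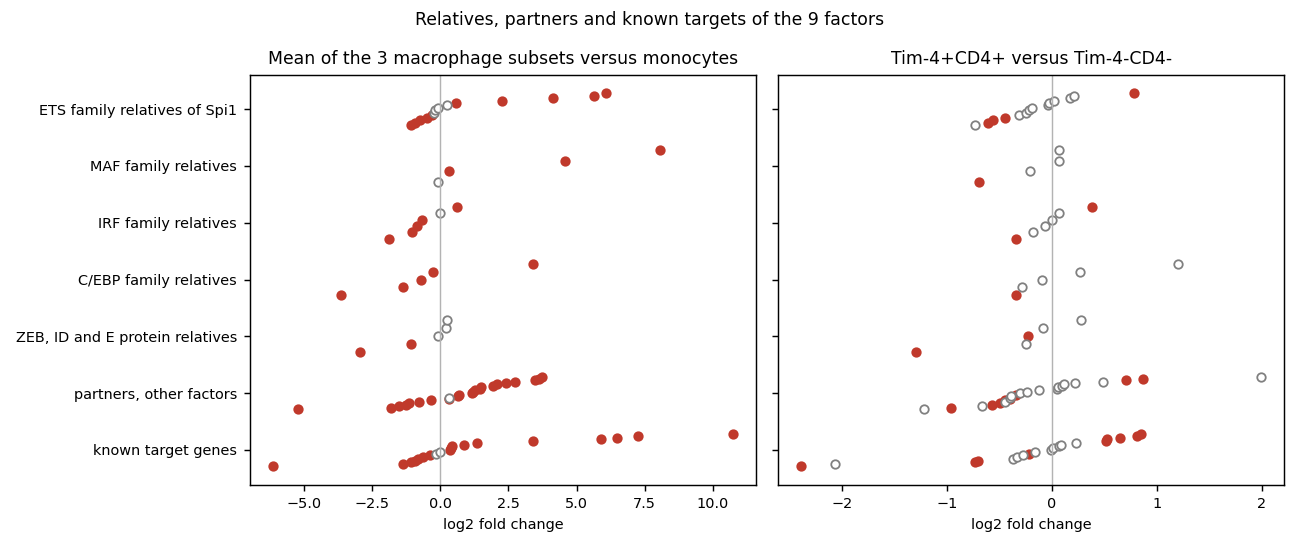
Log2 fold change of 76 tested genes related to the 9 factors, by list, in the macrophage mean against monocytes (left) and in Tim-4+CD4+ against Tim-4-CD4- macrophages (right). Each point is a gene, filled where the adjusted p is under 0.05, and 9 genes with 3 or fewer reads in every monocyte library are not drawn. The axes differ in scale: differences from monocytes on the left are far larger than most of those between subsets on the right. Genes listed as relatives of Cebpa and Irf8 lie mostly left of 0 in the left panel.

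The genes most like each member were those with the smallest root mean square difference of centered log2 CPM over the 15 libraries, among 9649 genes with a mean of at least 5 CPM. Cebpb was the gene nearest to Cebpa (0.16 log2, where the spread of Cebpa itself was 0.45), and Cyth3 came next. Tnfsf9 and Gpr84 were nearest to Id3 (0.30 and 0.37, own spread 1.10), Klf6 and Agap1 to Maf (0.21 and 0.21, own spread 0.95), and Mllt3 and Eps8 to Irf4 (0.20 and 0.22, own spread 0.70). Neu1 and Dok1 were nearest to Irf8, Sh3gl1 and 2310011J03Rik to Spi1, Sumo3 and Phldb3 to Cebpb, Ap4e1 and Rp2 to Zeb2, and Suv39h1 and Rcc2 to Id2, at 0.06 to 0.17 log2. Over the 12 macrophage libraries alone, Spi1 kept Sh3gl1 and no other member kept either of its genes. Lgals1 and S100a10 were then nearest to Id3 (0.26 and 0.26, own spread 0.93), and Ctsz and Pip4p1 to Irf8 (0.06 and 0.06, own spread 0.23).

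Libraries of a population differed in how levels ran with the base composition of genes, and the members followed this in part. The exons of Cebpb and Cebpa were 67.2% and 62.6% G or C, above 99.8% and 98.8% of tested genes, and those of Zeb2 40.6%, above 8.2%. The slope of a library on GC content, in log2 per 10% GC after subtracting the population mean, was 0.249 in Tim-4+CD4+ replicate 1 and 0.176 in Tim-4-CD4+ replicate 3, and -0.127 to 0.0408 in the other 13 libraries. In Tim-4+CD4+ replicate 1, Zeb2 deviated from the population mean by -0.78 log2, Maf by -0.71, and Spi1 by 0.27, but the most GC-rich members, Cebpb and Cebpa, deviated by only -0.03 and -0.06. In Tim-4-CD4+ replicate 3, Cebpa, Cebpb, and Id3 deviated by 0.67, 0.66, and 0.59 log2. The direction and calls of Id3 between subsets did not change without both libraries, nor did those of Irf8 and Id2 in Tim-4+CD4+ against Tim-4-CD4- macrophages. The part of base composition in the deviations was not tested.

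**Figure D4:**
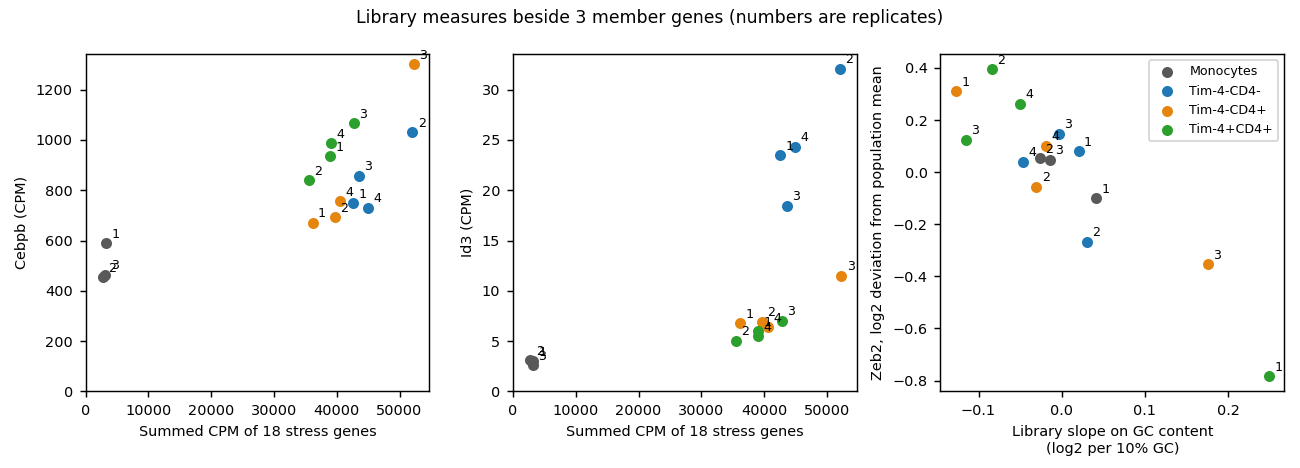
Library measures beside 3 members. The first 2 panels plot the CPM of Cebpb and Id3 against the summed CPM of 18 dissociation and stress genes, and the last plots the log2 deviation of Zeb2 from its population mean against the slope of the library on GC content, with 1 point per library, numbered by replicate. Tim-4-CD4- replicate 2 and Tim-4-CD4+ replicate 3 lie furthest right in the first 2 panels, at 52060 and 52280 CPM, and Tim-4+CD4+ replicate 1 is lowest for Zeb2 at the highest slope.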

How the data were processed

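RNA was sequenced from 15 sorted pools of mouse cells with a stranded mRNA kit and paired-end reads. Per the labels and the methods, the authors trimmed reads with Trimmomatic 0.36, aligned them with STAR to GRCm38.p4, and counted uniquely mapped reads per GENCODE gene with HTSeq 0.6.1p1. Whether strand was used in counting is not given in the sources used here. The deposited counts were used as they stand, and 15 columns of the same counts divided by size factors were not used. Samples were grouped by title. For Tim-4-CD4+ macrophages the replicate numbers of titles and descriptions differ, and those of the titles are printed.

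Genes were filtered with filterByExpr by population (15802 kept, all 9 members among them), normalized by TMM, and fitted with edgeR 4.0.16 (R 4.3.3) in 1 quasi-likelihood model of population over 15 libraries, with 7 contrasts and Benjamini-Hochberg adjustment over all genes. Intervals are 95% from that fit. DESeq2 1.42.0, other normalizations and filters, thinned counts, replicate blocks, and left-out libraries were alternatives. The code was tested on simulated counts. Replicates of a population are separate pools of mice per the titles, which do not say whether the subsets share mice. The study describes 4 independent macrophage sorts, so subsets may share mice. The main fit held no pairing, and p-values measure the spread between pools. Members and lists were chosen with earlier results of these data known. Named list genes were up to 3 called genes per list with the largest change in Tim-4+CD4+ against Tim-4-CD4- macrophages and up to 2 against monocytes, with a mean of at least 1 CPM, beside Tcf4, Csf1r, and the sort genes, and some genes that this rule names are not reported here. Nearest genes were the 2 per member described above. A correction for GC content and length by splines of 4 degrees of freedom, and 2 sets without a pair of libraries, were chosen after seeing the data. Names, lengths, and positions are from GENCODE M21 (GRCm38, 19421 of 19456 IDs matched), promoters from RefSeq. Intervals and limits cover counting error and the spread between pools only.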

Additional observations from a re-analysis of the deposited data

Results flagged for a closer look

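Within groups of 4 libraries, 4 of 27 checks of a member found a library set apart from the other 3 by Dixon's test. Chance gives about 1 in 20 for a single check. The members share the same libraries, and the flags all fell in Tim-4-CD4- replicate 2 and Tim-4-CD4+ replicate 3. The checks are therefore not independent, and their number cannot be set against that rate. Irf8 was at 569.9 CPM in Tim-4-CD4- replicate 2, with the others at 493 to 504 CPM, and the gap took 0.849 of the range of the group. Cebpa was at 396.6 CPM in the same library, with the others at 261 to 273 CPM (0.91 of the range). Cebpb was at 1300 CPM in Tim-4-CD4+ replicate 3, with the others at 671 to 756 CPM (0.865), and Id3 at 11.52 CPM in that library, with the others at 6.37 to 6.95 CPM (0.886). Both libraries had the highest summed dissociation and stress genes of their subset, 52060 and 52280 CPM, and the part of these in the 4 values was not tested.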

How the results depend on the processing

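Over all 63 member differences, 37 values changed sign, 39 lost and 25 gained a call, and 1654 did none of these. Requiring at least 2-fold left 3 members in each comparison with monocytes, in place of 8, 8, 7, and 8, and 1 in place of 2 and 4 in the comparisons of each CD4+ subset with Tim-4-CD4- macrophages. With the replicate numbers of the titles as a block, 1 member differed in Tim-4-CD4+ against Tim-4-CD4- macrophages, Id3, since Irf8 had an adjusted p of 0.0607, and 1294 genes passed in place of 1589. Leaving out 1 library at a time gave 1 to 3 members there, and without Tim-4-CD4+ replicate 4 1033 genes. Whether same-numbered libraries came from the same mice is not given in the labels. Deviations of same-numbered macrophage libraries correlated above 0.1 in 2 of 12 pairs by titles (-0.123 to 0.134) and 4 of 12 by descriptions (-0.0888 to 0.161). Libraries with different numbers were not compared, so pairing was not settled. The block by descriptions changed no call to a weaker one and added Id2 (0.36 log2, adjusted p = 0.0475) and Zeb2 (-0.48, 0.041) between Tim-4+CD4+ macrophages and monocytes and Irf4 (-0.57, 0.00509) in Tim-4-CD4+ against Tim-4-CD4- macrophages. Without Tim-4-CD4- replicate 2 and Tim-4-CD4+ replicate 3, 1 member differed between the CD4+ subsets in place of 0, Cebpb. Genes called between the CD4+ subsets were 539 by edgeR and 917 by DESeq2, and those in Tim-4-CD4+ against Tim-4-CD4- macrophages 2472 without Tim-4-CD4+ replicate 3 and Tim-4+CD4+ replicate 1.

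Every change of sign was in a difference that did not pass the test. Zeb2 in Tim-4-CD4- macrophages against monocytes turned to 0.0016 by DESeq2, 0.0013 with RLE, 0.0386 with upper-quartile scaling, 0.00545 at a mean of at least 1 CPM, 0.0154 with only the populations compared, 0.0071 with thinned counts, 0.13 with the GC and length correction, 0.0713 without Tim-4-CD4- replicate 2 and Tim-4-CD4+ replicate 3, and ran from -0.0581 to 0.0702 with 1 library left out. In Tim-4-CD4+ macrophages against monocytes it turned to 0.0018 with upper-quartile scaling and to 0.0426 without Tim-4-CD4+ replicate 3 and Tim-4+CD4+ replicate 1 or 0.0416 without the other pair of libraries, and ran from -0.17 to 0.0399. Zeb2 in Tim-4-CD4+ against Tim-4-CD4- macrophages turned to 0.0514 without the pair that includes Tim-4+CD4+ replicate 1, and ran from -0.16 to 0.0509. Cebpb in that comparison turned to -0.00915 and -0.0155 with the 2 replicate blocks, -0.25 and -0.14 without the 2 pairs, and ran from -0.25 to 0.14, and Spi1 turned to 0.0027 with the GC and length correction. Between the CD4+ subsets that correction gave -0.11 for Cebpa and -0.0558 for Cebpb, Maf was 0.20 and 0.0194 without the 2 pairs, and with 1 library left out Cebpa ran from -0.0369 to 0.36, Irf4 from -0.18 to 0.0534, and Maf from -0.23 to 0.10. Maf in Tim-4+CD4+ against Tim-4-CD4- macrophages ran from -0.11 to 0.22. Cebpa in Tim-4-CD4- macrophages against monocytes lost its call without monocyte replicates 2 or 3 (adjusted p 0.0694 and 0.0841) or Tim-4-CD4- replicate 2 (0.112). The cause of these changes was not tested. With all populations in it, the comparison with the macrophage mean has no value for the fit to only the populations compared. The lowest count of a member in a library was 139 reads. With counts thinned to the smallest library, Id2 gained a call in Tim-4+CD4+ macrophages against monocytes (0.36 log2, adjusted p = 0.0265). Irf4 gained a call in Tim-4-CD4+ against Tim-4-CD4- macrophages (-0.59 log2, adjusted p = 0.0439), and no member lost one.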
